A study of Mus musculus with 14 samples.

Results

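The regions described here are 649 places in the genome of mouse retina that carried a BCOR peak at embryonic day 14 (E14) and in both libraries of the day of birth (P0), but no BCOR peak in either adult library and no Otx2 peak in either P0 library. They were chosen by merging all overlapping peaks (1 bp or more) of 10 CUT&RUN peak lists on chr1 to chr19, which gave 39193 merged regions, and keeping those with this pattern. The 649 regions were 1.66% of all merged regions, 6.11% of the 10628 regions with a BCOR E14 peak and 16.0% of the 4054 regions with BCOR at E14 and in both P0 libraries (95% Wilson interval 14.9 to 17.2%). Their number depends on BCOR P0 replicate 1, the shorter BCOR list of that stage, without which 1304 regions have the pattern.

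CUT&RUN maps a protein by tethering a nuclease to it through an antibody and sequencing the DNA that is cut loose. It was run on retinal cells of wild-type (WT) CD1 mice. The libraries used here were BCOR at E14 (1 library), BCOR at P0 (2), BCOR in the adult (2), Otx2 at E14 (1), Otx2 at P0 (2) and Otx2 in the adult (2). The labels give no treatment or transgene for these samples, no age in days for the adult, and nothing on how many retinas or litters a library held. The series title and design text pair Otx2 with CRX, while the sample labels name Otx2 alone. The sources used here do not say whether the antibody recognises CRX as well. Another 4 libraries of RNA from sorted retinal cells, control and shBCOR, were not used here.

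BCOR is a transcriptional corepressor that was first known as a partner of BCL6. It is also a core part of a variant Polycomb repressive complex, which is brought to unmethylated CpG islands by the protein KDM2B and adds ubiquitin to a histone. Otx2 is a homeobox transcription factor that sets photoreceptor fate in newly formed retinal cells and stays on in photoreceptors and bipolar cells. At E14 the mouse retina consists largely of dividing progenitors and its early-born neurons, while around birth rods are being formed in large numbers. BCOR could thus lie at places where Otx2 also binds, or at places without it, and the 649 regions belong to the second class by their peak pattern at birth.

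The 10 lists held between 1339 peaks (BCOR adult replicate 1) and 24884 peaks (Otx2 P0 replicate 2) on chr1 to chr19. The BCOR lists held 10736 peaks for E14, 5292 and 8784 for P0, and 1339 and 2445 for the adult retina. The Otx2 lists held 8497, then 21759 and 24884, then 7183 and 14590 peaks for the same stages. Read depth of the libraries is unknown. The absence of a peak means that no peak was listed, and is not a measurement of absent binding. In whole retina, a weaker peak in every cell and a peak in fewer cells cannot be told apart. The lists were not cut at the same q-value: the largest was near 0.248 for adult BCOR, 0.0999 for BCOR E14, 0.0996 for Otx2 E14, and 0.0466 to 0.0496 elsewhere. Since the regions were chosen on the BCOR lists and the Otx2 P0 lists, their values in those lists are a description. Peaks in the Otx2 E14 list and both Otx2 adult lists were no condition of the choice, although they took part in the merging that set the bounds of regions (652 regions had the pattern without Otx2 adult replicate 2). The regions share their libraries and are not replicates of a condition, so no p-value is given, and all intervals cover counting error only.

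Coordinates are on mm9, counted from 1. Genes at the regions were not analysed here, since no annotation of mm9 was used, and the retinal origin of the chromatin was taken from the labels and not checked by these lists.

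The fold of a peak, the authors' ratio of signal over background at its summit, is used below to place a peak within its own list. At E14 the strongest BCOR peak of a region had a median fold of 5.34 (quartiles 4.40 and 6.50, range 2.80 to 13.7), which put the median region at percentile 49.4 of the E14 list. In BCOR P0 replicate 1 the median fold was 5.46 (quartiles 4.53 and 7.10, range 2.39 to 46.5), at percentile 53.0. In BCOR P0 replicate 2 it was 7.01 (quartiles 5.42 and 9.49, range 3.09 to 37.4), at percentile 64.2. All 4054 regions with BCOR at E14 and in both P0 libraries, the 649 among them, had median percentiles of 72.5, 56.3 and 72.2 in these lists. Of the 649 regions, 176 (27.1%) lay above the list median in all 3 of these lists and 108 (16.6%) in none of them.

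Against the 1485 regions with the same BCOR pattern and an Otx2 peak in both P0 libraries, the 649 regions stood lower in the E14 list and at like or higher places in the P0 lists. At E14 the median percentile was 49.4 in the 649 regions, against 67.9 in the regions with Otx2. In P0 replicate 1 it was 53.0 against 46.7, and in P0 replicate 2 it was 64.2 against 65.1. Among the top 10% of peaks in the E14 list were 4.47% of the 649 regions, against 15.5% of those with Otx2. The top 10% held 9.40% against 5.52% in P0 replicate 1, the order of the medians in both of these lists. In P0 replicate 2 it held 13.4% against 12.0%, where the medians stood in the other order. Another 140 regions shared the BCOR peaks of E14 and P0 and lacked Otx2 at P0, but had a BCOR peak in an adult library. The median percentiles of 49.4, 53.0 and 64.2 in the 649 regions stood against 80.4, 74.2 and 87.6 in these 140.

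**Figure D1:**
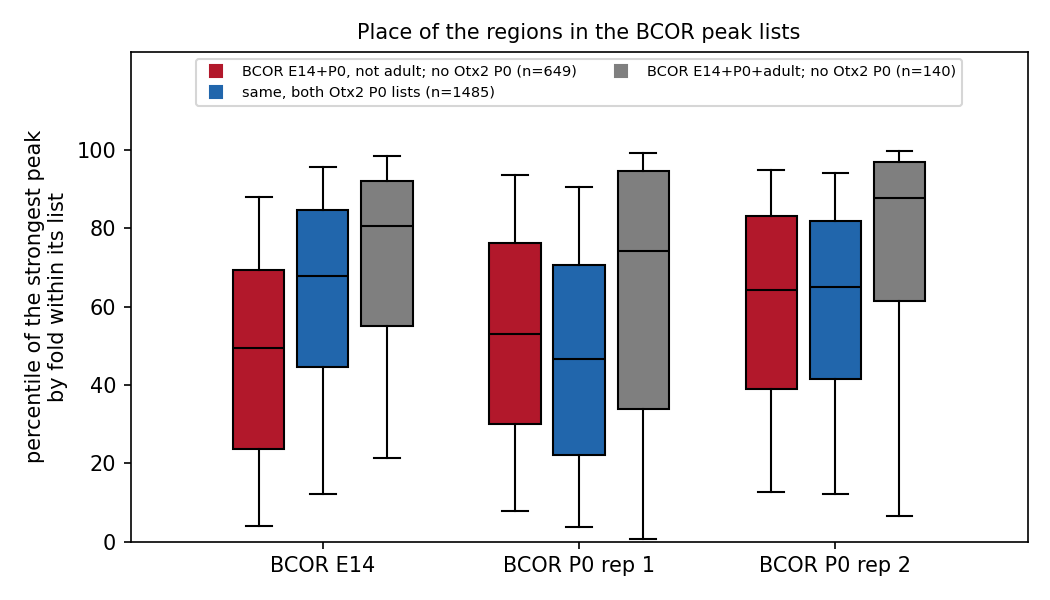
Percentile of the strongest BCOR peak of each region by fold within its list, for 3 BCOR lists; boxes give quartiles, the line the median, and whiskers the percentiles of 5 and 95%. The 649 regions (red) lie at a median of 49.4 at E14, below the 1485 regions with Otx2 at P0 (blue, 67.9), and at 53.0 against 46.7 and 64.2 against 65.1 in the P0 libraries, while the 140 regions with adult BCOR (grey) are higher in all 3.

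The folds of the 649 regions followed each other more closely between the P0 libraries than between stages. Across the 649 regions, Spearman's rho of the folds was 0.67 between the P0 replicates, 0.23 between P0 replicate 1 and E14 and 0.32 between P0 replicate 2 and E14. In the 1485 regions with Otx2 at P0 these values were 0.61, 0.12 and 0.16. The points of such a correlation share the same pairs of libraries, and the values are a description.

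**Figure D2:**
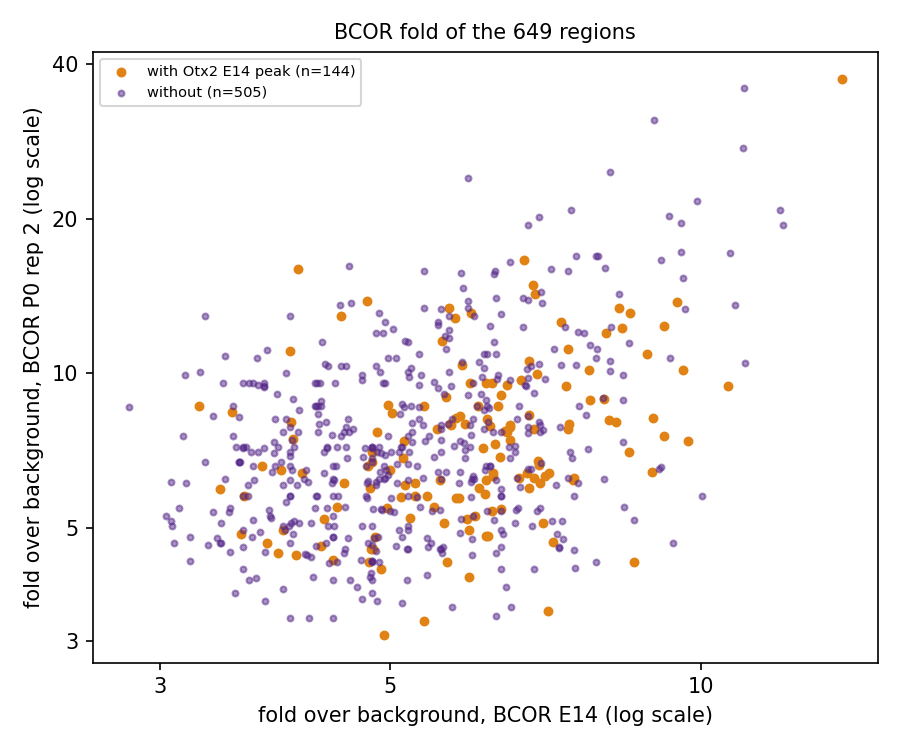
Fold over background of the BCOR peak at E14 (x axis, log scale) and in BCOR P0 replicate 2 (y axis, log scale) for each of the 649 regions, with the 144 regions that had an Otx2 E14 peak in orange and the other 505 in violet. The violet and orange points overlap at P0, and the orange ones lie further right at E14.

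The 8 regions given next had the best worst rank over the 3 lists. Ranks were taken as they stand in lists of different length, so list length bears on the pick, and the percentile would not pick all of the same regions. The first was chr15:98956405-98957678 (1274 bp). Its fold was 13.7 at E14 (rank 88 of 10736), 23.5 in P0 replicate 1 (rank 32 of 5292) and 37.4 in P0 replicate 2 (rank 31 of 8784). It had an Otx2 peak at E14 with a fold of 6.18, none in the adult, and its nearest Otx2 P0 peak lay 50961 bp away. The other 7 of these 8 had no peak in any Otx2 list.

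The second region, chr14:32064033-32064882, had folds of 11.9 at E14 and 17.3 and 20.8 at P0. At chr11:87172291-87172879 the folds were 12.0 at E14 and 12.4 and 19.4 at P0. At chr7:53121317-53122090 they were 11.0 at E14 and 23.2 and 35.9 at P0, with the nearest Otx2 P0 peak at 5984 bp. In all of these regions the fold was listed as higher in both P0 libraries than at E14, but folds of libraries of unknown depth can be set side by side only as descriptions.

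The region chr2:13976757-13978090 had folds of 11.0 at E14 and 19.1 and 27.4 at P0, and lay 4615574 bp from the nearest adult BCOR peak. At chr3:86724107-86725107 the folds were 10.7 at E14 and 10.7 and 17.2 at P0. At chr15:31153941-31154347, the narrowest of the 8 with 407 bp, they were 10.8 at E14 and 9.12 and 13.6 at P0. At chr8:74000085-74000790 they were 9.92 at E14 and 19.4 and 21.7 at P0. These 8 regions lay 5984 to 84728 bp from an Otx2 P0 peak, so none of them stood next to one.

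At the other end, 3 regions were picked by the worst best rank, on which list length bears likewise, so they are not the 3 lowest by percentile. Of these, chr6:47600963-47601301 had folds of 3.51 at E14 and 2.39 and 4.48 at P0. The regions chr8:20019726-20020489 and chr8:91566363-91567197 had 4.45 and 4.14 at E14, 2.47 and 2.95 in P0 replicate 1 and 5.50 and 4.44 in P0 replicate 2. All 3 lay within the lowest 100 peaks of P0 replicate 1, the shortest of the 3 lists, while the highest percentile of chr8:20019726-20020489 in any of them was 40.4.

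Otx2 at E14, which was no condition of the choice, was present at a minority of the regions. Of the 649 regions, 144 had an Otx2 E14 peak, 22.2% (95% Wilson interval 19.2 to 25.5%), while 21.4% of all merged regions had one. This share is near that of all merged regions, most of which were formed by Otx2 peaks, and says little on its own. Among regions with the same BCOR pattern, an Otx2 E14 peak was present in 130 of 292 regions with Otx2 in 1 P0 library (44.5%, 38.9 to 50.3%) and in 1223 of 1485 with Otx2 in both (82.4%, 80.3 to 84.2%). The difference between the 649 regions and those with Otx2 in both was −60.2 percentage points (95% Newcombe interval −63.7 to −56.3). The lists of Otx2 at E14 and P0 are readouts of the same factor, so a shortage at E14 among regions chosen for no peak at P0 is not independent of that choice.

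The difference was also seen within bands of BCOR peak strength, inside which strength was not matched further. The regions were divided by the percentile of their BCOR peak in the E14 list, from 0 to 25, 25 to 50, 50 to 75 and 75 to 100. In the 649 regions, the share with an Otx2 E14 peak in these bands was 11.6% (19 of 164), 16.0% (26 of 163), 30.8% (64 of 208) and 30.7% (35 of 114). Among the 1485 regions with Otx2 at P0 it was 65.0, 73.5, 80.5 and 92.8%, and among all regions with a BCOR E14 peak it was 25.2, 39.0, 59.2 and 84.9%. Of the 114 regions in the highest band, 79 thus had a strong BCOR peak at E14 and no listed Otx2 peak there. In the same bands of BCOR P0 replicate 2 the share in the 649 regions was 17.0, 24.0, 23.9 and 21.7%, against 83.7, 85.7, 79.4 and 82.4% in the regions with Otx2 at P0 and 47.0, 46.8, 53.6 and 71.2% in all regions with a peak in that list. The division into bands was chosen after the data were seen, and the choice by Otx2 P0 peaks holds within each band. The part of BCOR peak strength in the difference was not tested.

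**Figure D3:**
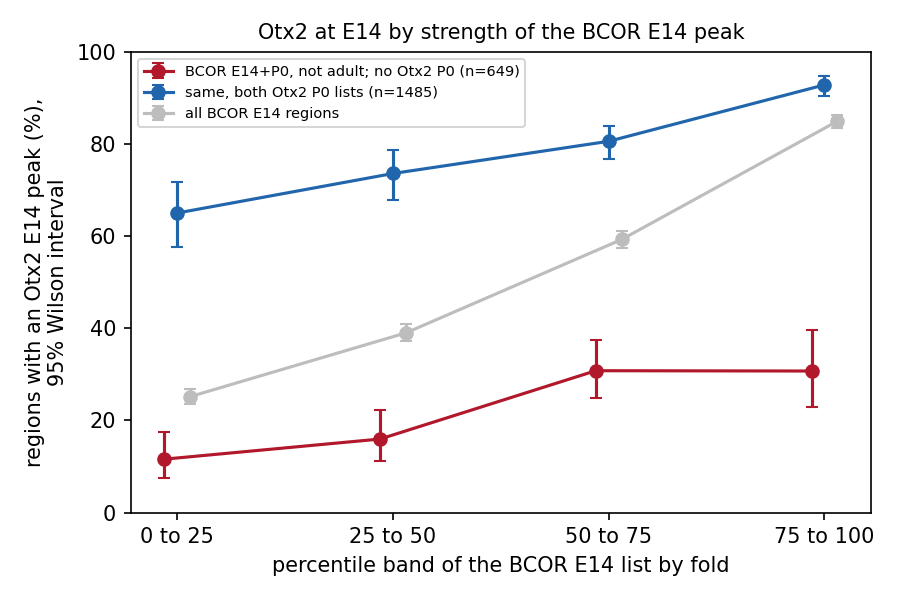
Share of regions with an Otx2 E14 peak (y axis, %, with 95% Wilson intervals) by percentile band of the BCOR E14 list by fold (x axis). The 649 regions (red) reach 30.7% in the highest band, against 92.8% for the regions with Otx2 in both P0 libraries (blue) and 84.9% for all regions with a BCOR E14 peak (grey).

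The Otx2 E14 peaks of the 144 regions stood low in their list. They had a median fold of 4.92 (quartiles 4.44 and 5.70, range 2.93 to 9.39) and a median percentile of 29.0 in the Otx2 E14 list. In the regions with Otx2 in both P0 libraries the median fold was 6.96, at percentile 65.9, and in those with Otx2 in 1 P0 library it was 5.63, at percentile 43.6. They stood at a like place in the 140 regions with adult BCOR and no Otx2 at P0, of which 69 had an Otx2 E14 peak, with a median fold of 5.07, at percentile 31.9. The Otx2 peak covered the summit of the BCOR E14 peak in 113 of the 144 regions (78.5%), and the summits of both lay a median of 81 bp apart (quartiles 39.5 and 188.5 bp), against 57 bp in the regions with Otx2 at P0 and 74 bp in the 140 regions. Peaks share a region only through the merging of overlaps, so this closeness is in part fixed by the merging and is a description.

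The 144 regions with Otx2 at E14 differed from the other 505 in the E14 BCOR list. Their median percentile there was 63.5, against 43.6 in the 505 regions without. In BCOR P0 replicate 1 the order was the other way, 45.9 against 56.3, and in BCOR P0 replicate 2 the medians were 64.7 and 64.0. A peak of Otx2 within 5000 bp at P0 was present for 23 of the 144 (16.0%) and 94 of the 505 (18.6%).

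In the adult, a minority of the 649 regions had an Otx2 peak. All merged regions include those formed by adult Otx2 peaks, and by Otx2 P0 peaks, which the 649 regions lack by choice. A share below that of all merged regions thus says little on its own. Otx2 adult replicate 1 had a peak in 4 of the 649 regions (0.616%, 95% Wilson interval 0.240 to 1.57%), against 17.9% of all merged regions. Otx2 adult replicate 2 had one in 83 (12.8%, 10.4 to 15.6%), against 37.0% of all merged regions, and these 83 held the 4 of replicate 1. Either library thus gave 12.8%, where 38.1% of all merged regions had a peak of either, and both gave 0.616%, where 16.8% had both. The share in either library therefore rests on replicate 2, the longer list, and without it is 0.767%.

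These shares were lower than in the regions with the same BCOR pattern and Otx2 at birth. The Otx2 lists of P0 and the adult are readouts of the same factor, so this shortage is not independent of the choice by P0 peaks. In adult replicate 1 the 0.616% of the 649 regions stood against 3.77% with Otx2 in 1 P0 library and 22.9% with Otx2 in both. In adult replicate 2 the 12.8% stood against 36.3% and 59.6%. For a peak in either adult library the difference between the 649 regions (12.8%) and those with Otx2 in both P0 libraries (60.1%) was −47.3 percentage points (95% Newcombe interval −50.8 to −43.6), and −22.0 points without adult replicate 2.

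The 140 regions with adult BCOR and no Otx2 at P0 also had Otx2 peaks more often than the 649 regions. In adult replicate 1 the shares were 0.616% in the 649 regions and 6.43% in the 140 (difference −5.81 points, −11.2 to −2.65), and in adult replicate 2 they were 12.8 and 41.4% (−28.6 points, −37.2 to −20.3). At E14 they were 22.2% and 49.3% (−27.1 points, −35.8 to −18.3). BCOR peak strength also differed: 17.6% of the 649 and 59.3% of the 140 stood above percentile 75 of the BCOR E14 list. By band of that list, the Otx2 E14 share of the 140 was 33.3% (3 of 9), 61.9% (13 of 21), 22.2% (6 of 27) and 56.6% (47 of 83). In the 649 regions it was 11.6, 16.0, 30.8 and 30.7%, so the order was reversed from percentile 50 to 75. The part of BCOR peak strength was not tested.

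**Figure D4:**
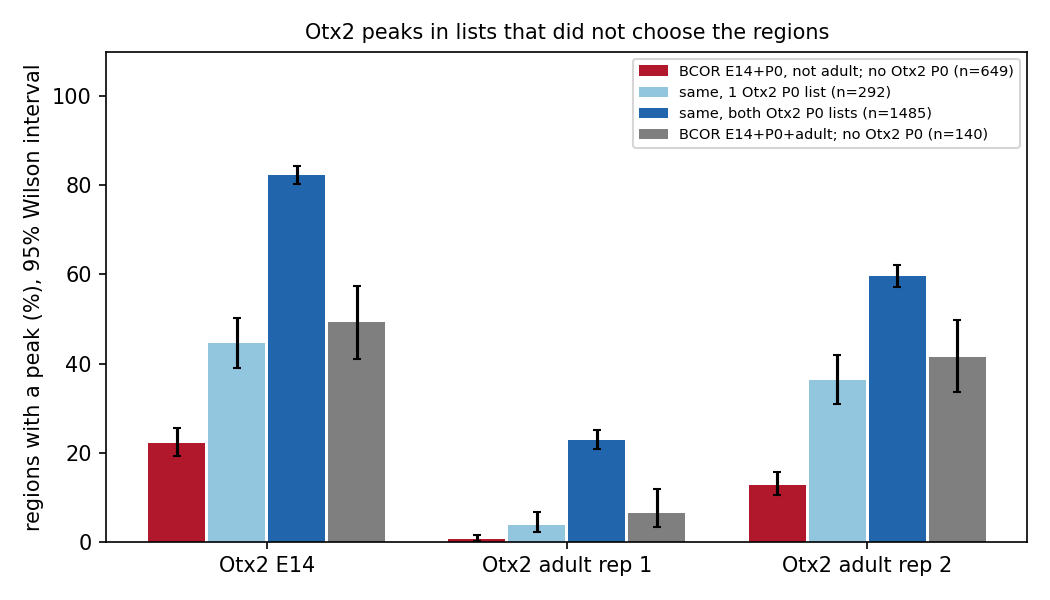
Share of regions with a peak in the Otx2 E14 list and in each Otx2 adult list (y axis, %, bars with 95% Wilson intervals), for the 649 regions (red) and 3 other sets. The red bars stand at 22.2, 0.616 and 12.8% and are the lowest of the 4 in each list.

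A peak of Otx2 in the adult went with one at E14 in part. Of the 144 regions with Otx2 at E14, 32 (22.2%, 16.2 to 29.7%) had an adult Otx2 peak, against 51 of the 505 without (10.1%, 7.76 to 13.0%). The 32 regions, 4.93% of the 649 and against 11.0% of all merged regions with both, had peaks of Otx2 on either side of birth but none listed at birth itself. Since all merged regions include those formed by Otx2 peaks, the 4.93% against 11.0% says little on its own. The adult replicate 2 peaks of all 83 regions that had one stood low as well, with a median fold of 5.61 (percentile 23.3 of that list). The median fold was 9.80 (percentile 54.6) with Otx2 in both P0 libraries and 7.12 (percentile 36.4) with Otx2 in 1. In the 140 regions with adult BCOR and no Otx2 at P0 it was 6.57 (percentile 31.0). In total 454 of the 649 regions (70.0%, 66.3 to 73.4%) had no peak in any of the 5 Otx2 lists, against 32.9% of the 140 regions with adult BCOR, for both of which the choice fixed the absence from the P0 lists. Over all merged regions, with no such condition, this was 10.3%, and over the 4054 with BCOR at E14 and in both P0 libraries it was 12.3%.

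A single region had Otx2 peaks at E14 and in both adult libraries. This was chr2:127095634-127096669, with Otx2 folds of 4.33 at E14 and 4.69 and 7.81 in the adult, and BCOR folds of 5.98 at E14 and 5.31 and 9.57 at P0. Its nearest adult BCOR peak was 3890 bp away. The other 3 regions with both adult Otx2 peaks, named after their values were seen, were chr9:107611715-107612811, chr10:70807360-70807815 and chr14:64224864-64225556, with adult Otx2 folds of 3.80 and 11.1, 5.45 and 10.6, and 3.58 and 6.44. None of these 3 had an Otx2 E14 peak.

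Overlap with an Otx2 peak of birth was excluded by the choice, and the distances to such peaks are given as a description. The distance to be had from places picked at random was not computed. The nearest Otx2 P0 peak lay a median of 24477 bp away (quartiles 8491 and 60500 bp, range 9 to 862736 bp). It was within 1000 bp for 40 regions (6.16%), within 5000 bp for 117 (18.0%) and within 50000 bp for 447 (68.9%). For the 140 regions with adult BCOR and no Otx2 at P0 the median was 25667 bp, with 10.0% within 1000 bp and 22.1% within 5000 bp. The intervals of these shares overlapped (18.0%, 15.3 to 21.2%, against 22.1%, 16.1 to 29.7%, within 5000 bp). Among the 532 regions farther than 5000 bp from any Otx2 P0 peak, a set formed after the data were seen, 22.7% had an Otx2 E14 peak and 13.3% an Otx2 adult replicate 2 peak. These values lie inside the intervals of the shares over all 649 regions. Since the 532 are 82.0% of the same regions, this says little on its own.

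**Figure D5:**
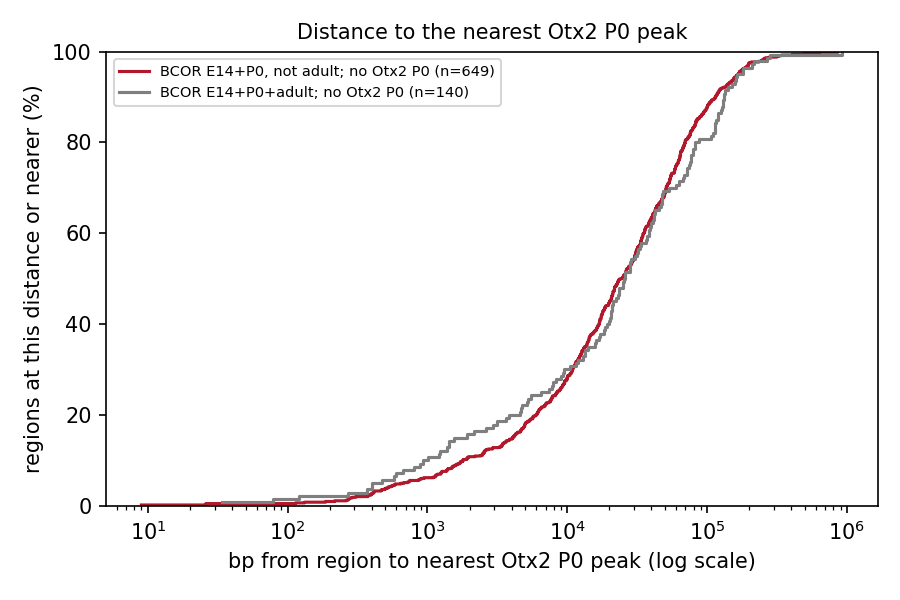
Distance in bp from a region to the nearest Otx2 P0 peak (x axis, log scale) and the share of regions at that distance or nearer (y axis, %), for the 649 regions (red) and the 140 regions with adult BCOR (grey). The medians are 24477 and 25667 bp, and the curves cross.

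The edge of the choice was sharp in a few places. Just inside it, chr13:78340494-78341239 lay 9 bp from an Otx2 P0 peak, and chr16:90830512-90831623 and chr17:80755548-80756544 lay 26 bp from one. The last of these had a BCOR fold of 46.5 in P0 replicate 1, the second highest of that list, with 12.3 in P0 replicate 2 and 8.19 at E14. Just outside it, chr4:147932306-147932840, chr4:148681630-148682692 and chr17:84260811-84262363 were kept out by an Otx2 peak of 1 P0 library that shared 0 bp with a BCOR P0 peak, with Otx2 folds of 5.23, 4.81 and 3.79. Only these 3 of the 1777 regions kept out by Otx2 at P0 had no bp shared between the BCOR P0 and Otx2 P0 peaks.

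The BCOR peaks of the 3 libraries share a region through the merging and the choice, so the distances between their summits are a description. The summits of E14 and P0 lay a median of 80 bp apart for P0 replicate 1 and 71 bp for P0 replicate 2, and the P0 replicates 62 bp from each other. In the regions with Otx2 in both P0 libraries these distances were 59, 50 and 46 bp. Summits of P0 replicate 2 and E14 were within 100 bp of each other in 60.2% of the 649 regions, against 72.8% of those with Otx2. Nearly all regions were single peaks, since 640 of 649 had 1 BCOR peak at E14, and 629 and 637 had 1 at P0.

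The median width of the regions was 644 bp (quartiles 501 and 816 bp, range 211 to 1976 bp), against 462 bp over all merged regions. It was 786 bp with Otx2 in both P0 libraries and 658.5 bp with Otx2 in 1, where Otx2 P0 peaks can add to the merged width. In the 140 regions with adult BCOR and no Otx2 at P0 it was 841 bp. The part of Otx2 peaks in these widths was not tested. The BCOR peaks themselves differed less: 461 against 500 bp at E14, 352 against 332 bp in P0 replicate 1 and 499 against 484 bp in P0 replicate 2. In the 140 regions with adult BCOR they were wider, at 658.5, 557.5 and 685.5 bp.

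None of the 5 widest regions was among the 8 with the best worst rank. The widest, chr11:102177954-102179929, had 1976 bp and BCOR folds of 5.18 at E14 and 8.82 and 11.5 at P0. It was followed by chr8:123607208-123609145 (1938 bp, folds of 4.70 at E14 and 11.3 and 9.92 at P0) and chr9:87624535-87626459 (1925 bp, folds of 3.65, 7.74 and 5.75). The remaining 2, chr3:58809410-58811300 and chr7:144505411-144507287, each had an Otx2 E14 peak, with folds of 4.55 and 2.93. Their BCOR folds were 4.98 and 4.08 at E14, 5.83 and 10.1 in P0 replicate 1 and 8.66 and 15.9 in P0 replicate 2. The last of these regions stood at percentile 18.4 of the E14 list but 96.0 of P0 replicate 2, and lay 678 bp from an Otx2 P0 peak.

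The regions were scattered over all 19 autosomes and rarely lay next to each other. Chromosome 2 held most, with 57, and chromosomes 15 and 16 fewest, with 19 each. As a share of regions with BCOR at E14 and in both P0 libraries they ranged from 11.2% on chromosome 7 (33 of 294, 95% Wilson interval 8.10 to 15.3%) to 23.9% on chromosome 3 (47 of 197, 18.4 to 30.3%). Another of the 649 regions lay within 10000 bp for 27 regions (4.16%), and 588 had none within 50000 bp. For the 1485 regions with Otx2 at P0 the share within 10000 bp of another of their own was 4.65%. Within 50000 bp the shares were 9.40% of the 649 regions and 17.1% of the 1485. The 1485 are the larger set, and set size bears on such shares. Any other region with BCOR at E14 and in both P0 libraries lay within 50000 bp for 210 of the 649 regions (32.4%, 28.9 to 36.1%), against 33.7% (31.4 to 36.2%) of those with Otx2.

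With gaps of at most 50000 bp, 26 pairs and 3 runs of 3 regions formed. The tightest run spanned 9881 bp at chr12:74145324-74155204. Its 3 regions had BCOR folds of 3.95, 3.72 and 3.61 at E14, 9.10, 8.17 and 4.55 in P0 replicate 1 and 7.67, 10.7 and 5.75 in P0 replicate 2, no peak in any Otx2 list, and lay at least 67417 bp from Otx2 P0 peaks. The run at chr2:174120771-174156403 spanned 35633 bp, with folds of 3.94, 3.53 and 5.02 at E14, and 1 of its 3 regions had an Otx2 E14 peak, with a fold of 3.77. The run at chr2:74506284-74543633 spanned 37350 bp, with folds of 3.41, 4.60 and 3.43 at E14, 7.13, 10.9 and 4.53 in P0 replicate 1 and 4.78, 7.78 and 4.67 in P0 replicate 2, no peak in any Otx2 list, and 71643 bp or more to the nearest Otx2 P0 peak. In all 3 runs the E14 folds were thus below the E14 median of the 649 regions.

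The absence of BCOR peaks in the adult was part of the choice, and its frequency is given as a description. Of all regions with BCOR at E14 and in both P0 libraries and no Otx2 at P0, 140 of 789 (17.7%, 15.2 to 20.6%) had a BCOR peak in an adult library. With Otx2 in 1 P0 library this was 102 of 394 (25.9%, 21.8 to 30.4%), and with Otx2 in both 1386 of 2871 (48.3%, 46.5 to 50.1%). Above percentile 75 of BCOR P0 replicate 2 the values were 29.4, 39.1 and 60.9% in this order of Otx2 lists, and up to percentile 25 they were 16.1, 10.6 and 32.1%. The adult BCOR lists were the shortest of the 10, and the part of list length in these shares was not tested. The nearest adult BCOR peak lay a median of 202594 bp from the 649 regions, against 149867 bp from the regions with Otx2 at P0 and no adult BCOR, and it was within 10000 bp for 3.85% (2.62 to 5.62%) against 5.05% (4.05 to 6.28%).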

How the data were processed

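Peaks were called with MACS2 for each CUT&RUN library, per the labels. Besides it, the submitters' processing notes name Bowtie2 and deepTools and the builds mm10 and mm9. The deposited lists give for each peak a score, a ratio (fold of signal over background), a −log10 p-value, a −log10 q-value and a summit, all the authors' values. No source used here gives the control or the threshold of peak calling. Peak ends as far as 197068071 on chromosome 1 and the names of unplaced sequences are those of mm9.

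Here, peaks of chr1 to chr19 were merged at 1 bp of overlap, and a region took the peak of highest fold of each list. Percentiles are ranks by fold within a list. Shares carry 95% Wilson intervals and differences of shares 95% Newcombe intervals (Python 3.11.15, pandas 2.3.3, SciPy 1.17.1). Merging was tested on simulated peaks. Distances count the bases between a region and a peak. No test across samples was made; groups had 1 or 2 libraries. The regions, the sets and the settings were chosen with earlier results of these data known. Regions given by position were the 8 with the best worst rank over 3 BCOR lists, those with 3 Otx2 peaks, the 5 widest, 3 runs, 3 just inside and 3 just outside the choice, and the 3 with the worst best rank. Sequences, genes and RNA counts were not analysed here. Alternatives changed the overlap, the peak span, the q-value and the libraries.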

Additional observations from a re-analysis of the deposited data

Results flagged for a closer look

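Chromosome X was outside the choice of regions. With the same pattern of peaks, it held 12 regions among 61 with BCOR at E14 and in both P0 libraries (19.7%, 95% Wilson interval 11.6 to 31.3%). The share on chr1 to chr19, 16.0%, lies inside this interval. The 4.92% that 3 counts of 61 make was a set floor and not an expected share. Of these 12, 2 had an Otx2 E14 peak and 2 an Otx2 adult peak, where the 649 regions had shares of 22.2% and 12.8%. The chromosome was singled out only because its peaks are data that the report did not otherwise use.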

How the results depend on the processing

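The number of regions stayed between 610 and 652 when the overlap, the merging gap, the span of a peak or the q-value were changed, and at least 90.3% of the 649 regions overlapped a region chosen under each of those settings. With a BCOR peak in either P0 library in place of both, there were 1375 regions, and the difference in adult Otx2 share to regions with Otx2 at birth was −42.8 points. Leaving out 1 library at a time gave 649 to 1304 regions, an Otx2 E14 share of 20.5 to 27.7%, a share with either adult Otx2 library of 0.767 to 18.4%, and a difference in that share of −54.6 to −22.0 points. The highest count came without BCOR P0 replicate 1, and the lowest share without Otx2 adult replicate 2, where the shorter list alone was left. The difference in that share, which was the only difference recomputed, kept its sign in every setting. In each setting it is not independent of the choice by Otx2 P0 peaks. Over 5000 bp from any Otx2 P0 peak, an alternative chosen once the data had been seen, 532 regions were left, with a difference of −46.8 points. No paired analysis was possible because each result is a count or share over regions chosen with both replicates together, and comes from no test. Depth of the libraries is unknown, so how many regions lack a peak through depth was not tested.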
